A study of Ovis aries with 6 samples.

Results

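The 2 genes described here are read at a moderate level in the sheep testis. Each stood at less than 0.5 of its maintenance level in testes from animals on restricted dietary energy, and no library of one diet reached the range of the other. Of 22323 genes kept by a filter on low counts, 2.67% likewise had every restricted library below every maintenance library, with counts scaled to column totals. The genes described are ENSOARG00000014292, an annotated sheep gene known here by its Ensembl identifier, and Novel03658, a transcribed locus that carries no Ensembl identifier and is called unannotated here. They are 2 of the 29307 genes in the deposited count table. They were chosen on that table by their levels in the 2 diets, with a mean of at least 10 CPM (each count scaled to its library's column total) required in each diet. The difference between the diets is therefore how they were picked, and it is described here with no p-value.

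The samples were 3 testes of Hu sheep, a prolific breed of Chinese origin, on a maintenance energy diet and 3 on a diet at the 55% energy level, called restricted here. All are of the same breed and tissue, and the labels name no other treatment. Neither the age of the animals, nor the length of the feeding, nor the time of tissue collection is given in the labels. They also do not say whether the samples are from separate animals, so the spread between replicates may in part be technical. Replicates were numbered in accession order, with maintenance replicates 1, 2 and 3 titled A13, A15 and A16 and restricted replicates 1, 2 and 3 titled D9, D10 and D11.

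The testis holds germ cells at every stage from stem-like spermatogonia through meiotic spermatocytes to spermatids, within tubules lined by Sertoli cells, which nourish them. Leydig cells between the tubules make testosterone under the control of the pituitary, and dietary energy is known to affect testis growth and sperm output in rams. RNA from the whole organ averages over these cell types. Fewer cells of a type and less RNA per cell cannot be told apart in such a measurement. The supplied sheep gene table held 0 of the 2 identifiers, so no symbol, position, sequence or function is given for either gene, and no testis marker could be read by name to check the tissue. Whether the counting used strand is not given in the sources used here, so reads of an overlapping or antisense gene would not be told apart from theirs.

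The lengths behind the deposited FPKM values (counts scaled by gene length and by column total) were 1110 bases for ENSOARG00000014292 and 1788 bases for Novel03658. Both were shorter than most genes of their kind. Of the genes with at least 10 CPM in each diet, 27.2% of the Ensembl genes were shorter than ENSOARG00000014292, and 31.1% of the unannotated genes were shorter than Novel03658.

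ENSOARG00000014292 had 382, 554 and 697 reads in maintenance replicates 1, 2 and 3, which is 24.6, 27.6 and 39.0 CPM. It had 234, 222 and 202 reads in restricted replicates 1, 2 and 3, which is 15.3, 14.9 and 14.6 CPM. The restricted testes lay close together and all below the maintenance testes, among which replicate 3 stood highest. The maintenance testes averaged 30.4 ± 7.56 CPM and the restricted testes 14.9 ± 0.363 CPM (SD, n = 3 each), so the restricted mean was 49.1% of the maintenance mean. The difference of the means, restricted minus maintenance, was -15.5 CPM, which in size was larger than the SD in either diet. The choice of the gene by its levels in the diets made this likely.

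Novel03658 had 1278, 1767 and 1165 reads in maintenance replicates 1, 2 and 3, which is 82.4, 88.1 and 65.1 CPM. It had 521, 678 and 352 reads in restricted replicates 1, 2 and 3, which is 34.0, 45.5 and 25.4 CPM. The diets again did not overlap, but here the restricted testes were spread out, with replicate 2 highest and replicate 3 lowest. The maintenance testes averaged 78.5 ± 12.0 CPM and the restricted testes 35.0 ± 10.1 CPM (SD, n = 3 each), so the restricted mean was 44.5% of the maintenance mean. Their difference of -43.6 CPM was again larger in size than either SD, which the choice of the gene likewise made likely.

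**Figure D1:**
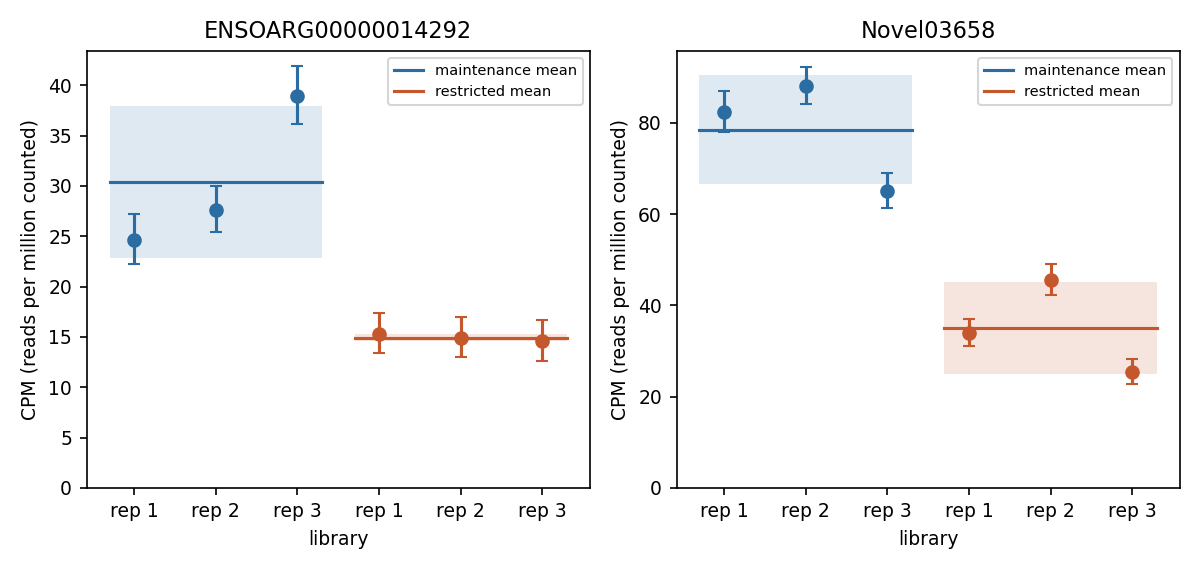
CPM of each gene (vertical axis, from 0) in the 6 libraries (horizontal axis, blue maintenance, orange restricted). Points carry 95% exact Poisson intervals for counting error, lines are diet means and shaded bands 1 SD. For ENSOARG00000014292 the restricted points lie between 14.6 and 15.3 CPM and the maintenance points between 24.6 and 39.0 CPM. For Novel03658 they lie between 25.4 and 45.5 CPM and between 65.1 and 88.1 CPM.

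Of the 22323 genes kept by the filter on low counts, 2.67% had every restricted library below every maintenance library (595 genes, CPM by column totals). With TMM scaling (the trimmed mean of M values), which sets the bulk of genes level between libraries, the share was 4.01% (896 genes). Both genes are among them, as their choice fixed. Across all 22323 genes, the edgeR quasi-likelihood test with Benjamini-Hochberg adjustment passed 0% at an adjusted p of 0.05, so neither gene is a call of that test. At an unadjusted p below 0.05 it held 540 genes (2.42%). Limma-voom called 0 genes and DESeq2 called 9 (0.0403%), and neither gene described here was among the 9.

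The nearest libraries of the 2 diets were further apart for ENSOARG00000014292 than for Novel03658, while the mean difference was greater for Novel03658. The lowest maintenance level of ENSOARG00000014292 was 1.61 times its highest restricted level, and its highest maintenance level was 2.68 times its lowest restricted level. For Novel03658 these ratios were 1.43 and 3.47. Any single maintenance testis set against any single restricted testis thus gave a lower level under restriction, by a factor within these ranges.

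The 2 genes differed in which diet carried the spread. The SD of ENSOARG00000014292 was 24.9% of its mean in maintenance and 2.43% in restricted testes. For Novel03658 it was 15.3% in maintenance and 28.9% in restricted testes. Counting error alone gave 4.42% and 6.77% for ENSOARG00000014292, and 2.71% and 4.56% for Novel03658. The spread was thus about 5.62 times the counting error for each gene in maintenance testes and 6.35 times for Novel03658 in restricted testes. The restricted values of ENSOARG00000014292, at 0.36 times the counting error, were more alike than their 202 to 234 reads can resolve. Their SD of 0.363 CPM is therefore not a measure of how alike the animals were.

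Scaling also bore on this closeness. On TMM-scaled counts the restricted levels of ENSOARG00000014292 were 15.6, 14.3 and 12.96 CPM, with an SD of 9.31% of the mean, and its maintenance levels were 25.2, 30.4 and 40.1 CPM. Those of Novel03658 were 84.3, 96.8 and 67.0 CPM in maintenance and 34.8, 43.6 and 22.6 CPM in restricted testes. The diets stayed apart for both genes, with the nearest libraries at a ratio of 1.61 for ENSOARG00000014292 and 1.54 for Novel03658.

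Per length, Novel03658 was the more highly read of the 2 in replicates 1 and 2 of each diet. It was narrowly higher in replicate 3 of each diet too, but counting error leaves the order unresolved there. That error was 3.79% for ENSOARG00000014292 and 2.93% for Novel03658 in maintenance replicate 3, and 7.04% and 5.33% in restricted replicate 3. The FPKM of Novel03658 was 2.08, 1.98 and 1.04 times that of ENSOARG00000014292 in maintenance replicates 1, 2 and 3. It was 1.38, 1.90 and 1.08 times in restricted replicates 1, 2 and 3. The ratio averaged 1.70 ± 0.574 over the maintenance and 1.45 ± 0.412 over the restricted testes (SD, n = 3 each), a difference smaller than the SD in either diet. The deposited levels behind these ratios were 27.4 ± 6.81 and 13.4 ± 0.327 FPKM for ENSOARG00000014292 and 43.9 ± 6.70 and 19.6 ± 5.66 FPKM for Novel03658, maintenance first (SD, n = 3 each).

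Within a diet the 2 genes did not follow the same order of testes. Maintenance replicate 3 was the highest for ENSOARG00000014292 and the lowest for Novel03658. Restricted replicate 3 was the lowest for both, but by 0.36 CPM below the next for the former and 8.66 CPM for the latter. Their likeness over the 6 libraries (Pearson r = 0.78 on log2(CPM + 0.5), a description over 6 points that includes the diet difference they were picked for) was exceeded by that of 272 other genes with ENSOARG00000014292 and 212 other genes with Novel03658.

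The place of each gene in the order of all 29307 genes, which no scaling of whole libraries changes, was also lower under restriction. ENSOARG00000014292 ranked 8141, 6444 and 5515 from the top in maintenance replicates 1, 2 and 3, and 9234, 10260 and 10209 in restricted replicates 1, 2 and 3. Novel03658 ranked 3081, 2744 and 3685 in the maintenance libraries and 6017, 5392 and 7964 under restriction. The ranks of the diets did not overlap for either gene. They come from the same counts that the genes were picked on, so they are a description and no further support. How many other genes have ranks that do not overlap was not counted. By mean CPM over the 6 libraries, Novel03658 was number 171 among the 8386 unannotated genes, and ENSOARG00000014292 was number 7616 among the 20921 Ensembl genes.

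In the edgeR fit across all 22323 genes, the log2 fold change of restricted over maintenance was -1.16 (SE 0.26) for ENSOARG00000014292, a level 2.23-fold lower. It was -1.30 (SE 0.29) for Novel03658, a level 2.46-fold lower. Scaled by column totals alone, the estimates were -1.03 and -1.17. The fit placed the median gene at a log2 change of -0.05 under TMM and of 0.08 under column totals alone. Relative to that median gene, the change of ENSOARG00000014292 was -1.11 under both scalings, and that of Novel03658 was -1.24 with TMM and -1.25 with column totals. Scaling shifts all genes by nearly the same amount, so the likeness of these values follows from the subtraction.

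A single library moved the size of each difference. The direction could not turn, because the diets do not overlap for either gene. Without maintenance replicate 3, its highest library, ENSOARG00000014292 stood at -0.88 (SE 0.31), and without maintenance replicate 1 at -1.30 (SE 0.25). Leaving out any one of the other 4 libraries gave -1.16 to -1.09. Novel03658 stood at -1.53 (SE 0.32) without restricted replicate 2 and at -1.08 (SE 0.27) without restricted replicate 3. The other 4 such fits gave -1.36 to -1.13.

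The 6 libraries also parted along a first principal component that crossed the diets and held 57.4% of the variance of log2 CPM. Maintenance replicates 2 and 3 and restricted replicate 1 were on its positive side, the other 3 libraries on its negative side. With no overlap between the diets, both genes had to be lower under restriction on each side, so only the sizes are informative. On the positive side the differences in mean log2 TMM-scaled CPM were -1.15 for ENSOARG00000014292 and -1.21 for Novel03658. On the negative side they were -0.88 and -1.42. With this component as a covariate in the edgeR fit they were -1.08 (SE 0.19) and -1.28 (SE 0.26). Depth went with diet: the restricted libraries held 13876765 to 15311385 counted reads and the maintenance libraries 15513155 to 20050430. The part of depth in the difference was not tested.

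**Figure D2:**
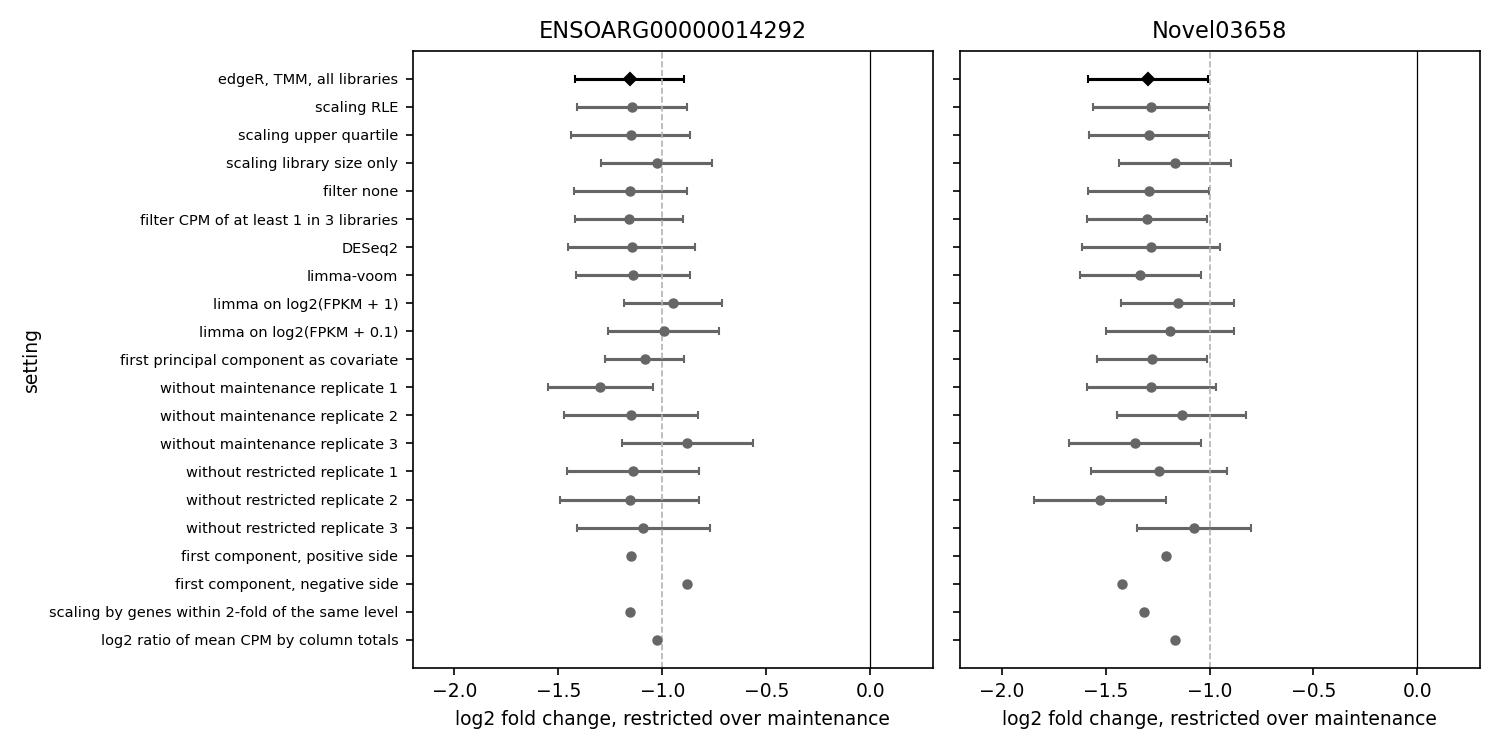
Log2 fold change of restricted over maintenance (horizontal axis) for each gene under each way of processing (vertical axis), with bars of 1 SE where the fit gives one; the solid line marks 0 and the dashed line a log2 change of -1. ENSOARG00000014292 ranges from -1.30 to -0.88 and Novel03658 from -1.53 to -1.08.

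Set beside other genes read as well, the size of the change was uncommon but shared, and the separation between the diets was at the edge of the range. Of 11019 genes that averaged 10 CPM or more in each diet, 146 had a restricted mean of 0.4 to 0.6 times the maintenance mean (1.32%), and 22 had a lower ratio. The mirror range, from 1/0.6 to 1/0.4 times, held 140 genes. With TMM-scaled CPM the 2 ranges held 296 and 63 genes, so this balance depends on the scaling. Single libraries moved the count of 146 too. Leaving out maintenance replicate 1 gave 305 genes and leaving out maintenance replicate 2 gave 223. Leaving out restricted replicate 1 gave 415 genes and leaving out restricted replicate 3 gave 85. A ratio lower than that of ENSOARG00000014292 was found in 43 genes, and one lower than that of Novel03658 in 31 genes. Of those 43 genes, 10 had all restricted libraries below all maintenance libraries, Novel03658 among them, and of those 31 genes, 4 did.

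Most genes with a ratio in that range had overlapping diets. Of the 146 genes, 53 had all restricted libraries below all maintenance libraries, 52 of them Ensembl genes and 1 unannotated, which is Novel03658 (104 of 296 with TMM). The 11019 genes were themselves mostly Ensembl genes, 9899 against 1120 unannotated. Over all 11019 genes, 250 (2.27%) lay wholly below and 579 wholly above (410 and 245 of the 11040 such genes with TMM). No other gene of the 11019 had a larger ratio of the lowest maintenance to the highest restricted level than ENSOARG00000014292, and 2 genes had a larger one than Novel03658 (0 and 3 with TMM). In the opposite direction, 1 gene had a ratio of the lowest restricted to the highest maintenance level of at least 1.61, and 2 genes had one of at least 1.43. These places describe genes that were picked for this contrast.

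**Figure D3:**
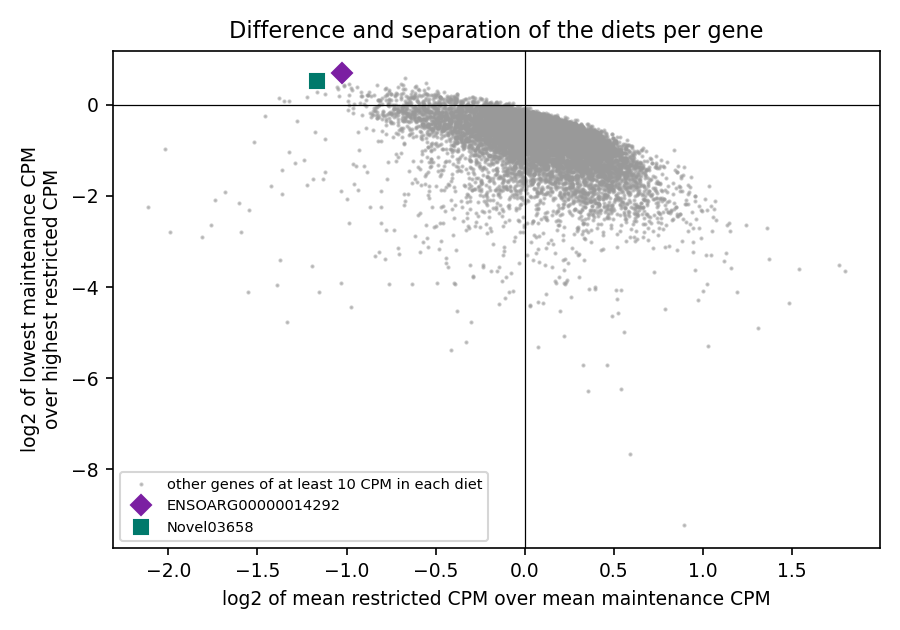
Each point is a gene with at least 10 CPM in each diet; the horizontal axis is log2 of the mean restricted over the mean maintenance CPM, and the vertical axis is log2 of the lowest maintenance over the highest restricted CPM, above 0 where the restricted libraries lie wholly below. 1 gene with 0 reads in a maintenance library is not drawn. ENSOARG00000014292 is the highest point, and Novel03658, with a lower ratio of means, has 2 points above it.

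The spread between replicates, pooled over the diets, was below that of like genes for ENSOARG00000014292 and close to it for Novel03658. For ENSOARG00000014292 the pooled value takes in the restricted libraries, which were more alike than their reads can resolve. The SD of log2(CPM + 0.5) within diets, pooled over both, was 0.24 for ENSOARG00000014292, against a median of 0.40 in the 5608 other genes within 2-fold of its mean level. Of those, 23.1% had a smaller SD. For Novel03658 it was 0.34, against a median of 0.32 in 5013 genes, of which 52.3% had a smaller SD. Among the 146 genes with a ratio of 0.4 to 0.6 the median SD was 0.56. The biological coefficient of variation that edgeR estimated with information shared across genes was 28.8% for ENSOARG00000014292 and 28.7% for Novel03658. The medians of the genes within 2-fold of their mean levels were 33.0% and 27.6%. By this measure ENSOARG00000014292 was nearer to like genes than by the SD, and Novel03658 was again close to them. Sharing information across genes draws each estimate towards like genes, so this nearness is in part due to the method.

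Among genes with a ratio of 0.4 to 0.6 and no overlap between diets, the one just inside the level minimum of 10 CPM was ENSOARG00000006324, at 18.0 ± 3.60 CPM in maintenance and 10.4 ± 4.42 CPM under restriction (ratio 0.58). The one just outside was ENSOARG00000010466, at 20.1 ± 8.19 and 9.87 ± 1.58 CPM (ratio 0.49, SD, n = 3 each). These neighbours were looked up within that group, so their ratio and lack of overlap are conditions of the lookup. The restricted mean of ENSOARG00000014292, at 14.9 CPM, was nearer to this minimum than that of Novel03658.

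The genes whose pattern over the 6 libraries was most like theirs differed by less between the diets. Likeness was the Pearson correlation of log2(CPM + 0.5) over 6 libraries, compared across the 11018 other genes with at least 10 CPM in each diet, and is a description. Correlation takes no account of the size of a change. ENSOARG00000014292 and Novel03658 were picked for a sizeable difference, so smaller ones in the genes most alike were likely. ENSOARG00000020175 (r = 0.98) stood at 287 ± 23.6 CPM in maintenance and 220.3 ± 12.0 CPM under restriction, a ratio of 0.77. ENSOARG00000004076 (r = 0.98) stood at 20.4 ± 1.67 and 16.6 ± 0.672 CPM, a ratio of 0.82. Like ENSOARG00000014292, both were highest in maintenance replicate 3, a likeness that the lookup by correlation selects for, but their ratios were closer to 1.

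For Novel03658 the genes most alike were ENSOARG00000020618 (r = 0.98), at 102 ± 8.32 and 80.1 ± 5.16 CPM (ratio 0.79), and ENSOARG00000000685 (r = 0.98), at 98.1 ± 2.81 and 82.4 ± 5.29 CPM (ratio 0.84; SD, n = 3 each). Like Novel03658, both were lowest in restricted replicate 3 and had their lowest maintenance level in replicate 3, which the lookup also selects for. A correlation above 0.95 was reached by 10 genes with ENSOARG00000014292 and by 9 with Novel03658.

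**Figure D4:**
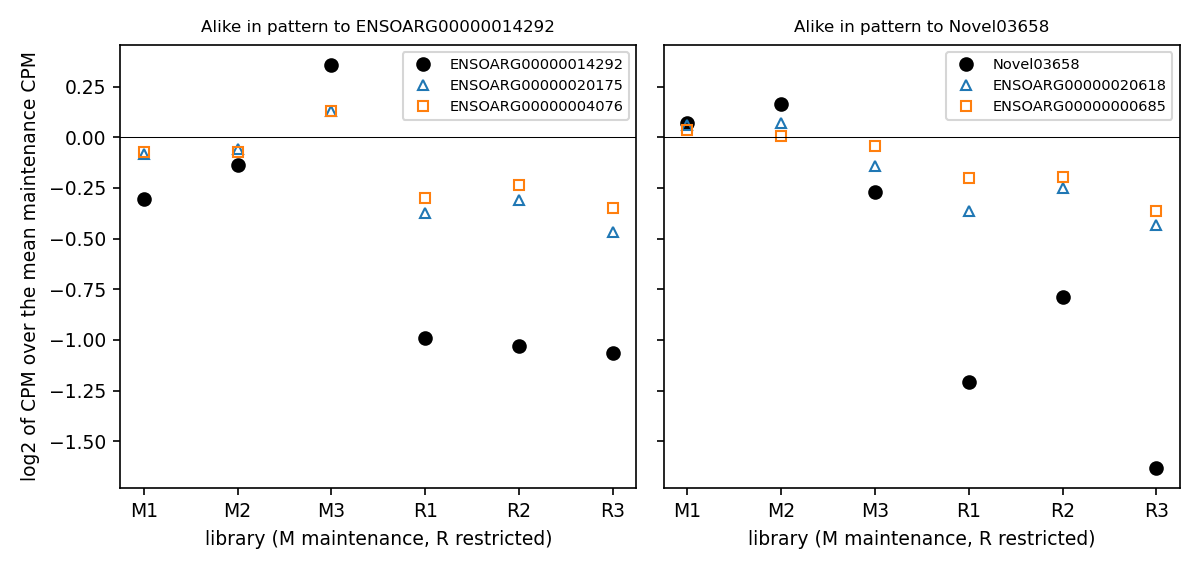
Log2 of CPM over the gene's own mean maintenance CPM (vertical axis) in the 6 libraries (M maintenance, R restricted), for each gene (black circles) and the 2 genes most like it in pattern (open symbols). The open symbols follow a similar course but lie less far below 0 in the restricted libraries, with ratios of means of 0.77 to 0.84.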

How the data were processed

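RNA of 6 testis samples was sequenced on an Illumina platform, after TRIzol isolation from frozen tissue, per the labels' protocols. The submitters' processing notes name TopHat2 and the genome build Oar_v3.1. The counting tool, annotation and strand setting are not stated in the sources used here. The authors deposited raw read counts and FPKM values per gene, and the deposited FPKM values of both genes equal counts divided by length and column total. The reference table (RefSeq, ARS-UI_Ramb_v3.0) held 0 of the 29307 identifiers.

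Genes were kept by filterByExpr of edgeR 4.0.16 (minimum count 10, minimum total 15), TMM-scaled and fitted with edgeR's quasi-likelihood model in R 4.3.3. Fold changes are restricted over maintenance, with the SE taken from the F statistic. Alternatives used DESeq2 1.42.0 and limma 3.58.1. The code of the fit was checked on counts simulated from its own fitted means and dispersions, by the median estimate of changed genes. The simulated libraries were independent and lacked the first component seen in the data. The check therefore says little about the fold change or SE of a single gene here. Poisson intervals are 95% and cover counting error only. The 2 genes, the range of 0.4 to 0.6 and the tests were chosen with earlier results of these data known. Besides them the text names, by rule, the 2 genes most correlated with each and, among genes with a ratio of 0.4 to 0.6 and no overlap between diets, the 1 gene whose lower diet mean is nearest to 10 CPM on either side.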

Additional observations from a re-analysis of the deposited data

How the results depend on the processing

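Both genes kept a lower level under restriction in all 20 alternatives run. Of these, 17 were planned, though with earlier results of these data already known. The other 3 (each side of the first component, and scaling by genes within 2-fold of the same level) were added after seeing the data. The genes were picked for a lower level under restriction and their diets do not overlap. The direction could therefore hardly turn, and only the size is informative. The log2 change, -1.16 for ENSOARG00000014292 and -1.30 for Novel03658, ranged from -1.30 to -0.88 and from -1.53 to -1.08 when 1 library was left out, and from -1.16 to -0.88 and from -1.42 to -1.15 over the other 14 alternatives. For ENSOARG00000014292 it moved by more than the SD within diets (0.24) without maintenance replicate 3 (-0.88) and on the negative side of the first component (-0.88); for Novel03658 it did so in none. The 146 genes at 0.4 to 0.6 times their maintenance level became 296 with TMM-scaled CPM, 269 with RLE-scaled CPM, 51 with a ratio of 0.45 to 0.55 and 255 with a minimum of 5 CPM, and between 85 and 415 without 1 library. The mean restricted level of ENSOARG00000014292, 14.9 CPM, was 14.3 with TMM and 14.4 with RLE or upper quartile scaling. The shifts under another scaling, ratio range or level minimum follow from those settings. Why single libraries or a side of the first component moved the values was not tested. No paired analysis was possible because the labels give no replicate number that is shared between the diets. Depth limits ENSOARG00000014292 most: its 202 to 234 restricted reads leave a counting error of 6.54 to 7.04% per library.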
